A study of Homo sapiens with 6 samples.

Results

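The nuclear-encoded oxidative phosphorylation genes were examined in THP-1-derived macrophages after DUSP6 knockdown. Members were taken by gene symbol, as rows beginning with the NDUF, SDH, UQCR, COX4 to COX8 and ATP5 stems of the subunits and the NDUFAF and SDHAF stems of the assembly factors. Rows with pseudogene names were left out, and the mean over the 6 libraries had to reach 1 TPM, where TPM is the length-corrected share of a library's transcripts. Of 63241 gene rows 287 carried such a name, 179 of them pseudogenes and 14 others below the minimum, which left 94 members. These were 91 subunits or assembly factors and 3 other transcripts, the readthroughs ATP5MF-PTCD1 and NDUFC2-KCTD14 and the divergent transcript NDUFA6-DT. The NDUF stem had to be followed by a letter and then a number, so the subunit NDUFAB1 was not a member, and neither was the subunit CYC1. NDUFAB1 is counted below with the further assembly factors, and CYC1 with the cytochrome c and ubiquinone carriers.

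The libraries came from THP-1-derived macrophages, cells of an established human monocytic leukaemia line differentiated toward macrophages, 24 h after transfection. One group of 3 libraries (siNC) received a negative control siRNA and is labelled wild type; the other group of 3 (siDUSP6) received an siRNA against DUSP6, the phosphatase of ERK, and is labelled a DUSP6 knockdown. The labels do not say whether replicates came from separate cultures, so p-values measure the spread between these libraries, which may be technical. For siDUSP6 replicates 2 and 3 the label for treatment gives DUSP7 and DUSP8, whereas title, library name and genotype give DUSP6. DUSP6 itself was at 359, 368 and 378 TPM in siNC and at 227, 218 and 222 TPM in siDUSP6, a log2 fold change of -0.73 (limma with Benjamini-Hochberg adjustment, adjusted p = 8.667e-05), so no siDUSP6 library reached a control level and replicates 2 and 3 lay beside replicate 1. All 9 macrophage markers were at or above 1 TPM, with summed levels of 1189 to 1228 TPM in siNC and 1241 to 1246 TPM in siDUSP6. Among them CD14 (log2 fold change 0.44, adjusted p = 0.0333, limma) and MSR1 (0.15, adjusted p = 0.0076) rose, and ITGAM, CSF1R and LYZ had every siDUSP6 library below every siNC library with adjusted p of 0.252, 0.286 and 0.148; their part in the results was not tested. The fibroblast markers (2 of 6 at or above 1 TPM) summed to 4.9 to 7.8 TPM in siNC and 5.2 to 6.2 TPM in siDUSP6, with COL3A1 and LUM at 0; the epithelial (0 of 5, EPCAM at 0) and lymphocyte markers (2 of 5, CD3D and MS4A1 at 0) summed to at most 3.9 TPM in any library. TPM do not retain sequencing depth, which is unknown here.

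Oxidative phosphorylation uses a chain of complexes in the inner mitochondrial membrane. Complexes I and II pass electrons from NADH and succinate to ubiquinone, complex III passes them to cytochrome c and complex IV to oxygen, and complex V uses the resulting proton gradient to make ATP. Complexes I, III, IV and V join nuclear-encoded subunits with mitochondrially encoded ones, whereas all subunits of complex II are nuclear, and dedicated assembly factors insert cofactors and join the modules. In macrophages the balance between glycolysis and this pathway is known to differ between inflammatory and alternative activation, and succinate oxidation by complex II is known to drive mitochondrial superoxide formation in the inflammatory state.

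Promoters are shown for the members that passed the test (SDHAF3 and COX5A), for the member just short of it (NDUFA2), for the single member higher at an unadjusted p below 0.05 (ATP5ME) and for SDHD, whose level hardly moved. Each runs 5′ to 3′ on the gene's strand, from 250 bases before to 50 bases after the RefSeq start (GRCh38.p14), in lower case, and capitals mark exact matches on either strand to 3 short motifs of factors known to act on respiratory genes: CCGGAAG (ETS family, which includes GABPA), GCGCATG (NRF1) and GATGGCG (YY1). The windows are chr7:97117448-97117747 on the plus strand for SDHAF3, chr15:74938024-74938323 on the minus strand for COX5A, chr5:140647581-140647880 on the minus strand for NDUFA2, chr4:674227-674526 on the minus strand for ATP5ME and chr11:112086623-112086922 on the plus strand for SDHD.
SDHAF3: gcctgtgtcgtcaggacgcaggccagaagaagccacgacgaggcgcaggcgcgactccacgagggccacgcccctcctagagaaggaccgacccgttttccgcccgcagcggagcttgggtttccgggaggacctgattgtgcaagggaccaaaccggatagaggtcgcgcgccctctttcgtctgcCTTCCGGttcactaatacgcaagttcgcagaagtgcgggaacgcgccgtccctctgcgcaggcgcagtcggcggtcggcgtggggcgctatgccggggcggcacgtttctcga
COX5A: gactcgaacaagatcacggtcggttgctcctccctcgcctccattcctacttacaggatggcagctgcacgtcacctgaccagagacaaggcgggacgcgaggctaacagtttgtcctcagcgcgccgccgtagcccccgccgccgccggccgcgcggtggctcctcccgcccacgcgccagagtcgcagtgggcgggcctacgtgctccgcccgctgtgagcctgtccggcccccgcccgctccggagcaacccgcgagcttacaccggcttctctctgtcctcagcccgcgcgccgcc
NDUFA2: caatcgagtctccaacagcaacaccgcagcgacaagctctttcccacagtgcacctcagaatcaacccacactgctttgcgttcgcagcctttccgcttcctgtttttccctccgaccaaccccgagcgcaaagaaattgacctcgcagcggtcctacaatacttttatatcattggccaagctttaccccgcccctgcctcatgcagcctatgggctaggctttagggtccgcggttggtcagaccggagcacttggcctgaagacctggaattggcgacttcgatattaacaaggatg
ATP5ME: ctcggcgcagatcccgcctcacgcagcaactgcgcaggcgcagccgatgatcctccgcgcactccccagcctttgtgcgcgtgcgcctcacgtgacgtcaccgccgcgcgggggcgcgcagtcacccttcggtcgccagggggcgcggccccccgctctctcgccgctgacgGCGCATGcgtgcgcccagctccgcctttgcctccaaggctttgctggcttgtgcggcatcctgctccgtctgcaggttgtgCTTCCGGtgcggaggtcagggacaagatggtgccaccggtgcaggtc
SDHD: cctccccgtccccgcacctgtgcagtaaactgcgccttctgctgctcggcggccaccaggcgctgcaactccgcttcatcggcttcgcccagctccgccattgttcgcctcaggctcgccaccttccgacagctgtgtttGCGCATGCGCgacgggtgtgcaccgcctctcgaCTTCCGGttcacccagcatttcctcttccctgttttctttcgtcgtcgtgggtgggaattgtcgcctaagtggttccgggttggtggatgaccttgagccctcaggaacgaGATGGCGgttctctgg
SDHAF3 held the ETS motif 63 bases before the start, and the windows of COX5A and NDUFA2 held none of these letters. ATP5ME held the NRF1 motif 78 bases before the start and the ETS motif from base 4 after it. SDHD held all 3, with the NRF1 motif on both strands in overlapping positions 110 and 107 bases before the start, the ETS motif 77 bases before it and the YY1 motif 35 bases after it.

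RefSeq promoters matched 76 of the 91 subunits and assembly factors and 15 were unmatched. The ETS motif was in 23 of the 76 (30.3%), against 20.3% of the promoters of tested protein-coding genes and 10.7% of all promoters in the table. The NRF1 motif was in 17 (22.4%, against 7.7% and 4.67%) and the YY1 motif in 10 (13.2%, against 7.95% and 4.35%). At least 1 motif was in 37 (48.7%, against 31.3% and 17.6%). The median log2 fold change between siDUSP6 and siNC was -0.0558 for members with a motif and -0.0625 for the 39 without. It was -0.0419 with and -0.0623 without the ETS motif, -0.0419 and -0.0625 for NRF1, and -0.0521 and -0.062 for YY1. These differences were not tested. A match of letters is a description and does not show binding. Members also often shared a start region with another gene: 31 of 91 (34.1%) had a neighbour on the opposite strand starting within 1000 bases, against 15.7% of the 11935 protein-coding genes tested. The shortest distances were those of ATP5F1A with HAUS1 (2 bases), SDHAF2 with CPSF7 (11 bases), NDUFS1 with EEF1B2 (18 bases), NDUFB1 with CPSF2 (20 bases) and UQCRH with LRRC41 (23 bases), followed by SDHD with TIMM8B (25 bases). In limma's fit 0 of these 31 neighbours passed the adjusted threshold, against 3.86% of all genes tested. With so low a background 31 genes are too few to show a difference from it.

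The members were abundant, and except in complex II their levels spread widely within each complex. In TPM, which correct for transcript length, 57 of 94 members had a mean of at least 100 over the 6 libraries. Together they made up 2.175% to 2.183% of a siNC library's TPM and 2.125% to 2.137% of a siDUSP6 library's. Median levels of the classes were 97.6 TPM for the complex I core, 118 TPM for its accessory subunits, 117 TPM for complex II, 148 TPM for complex III, 416 TPM for complex IV, 263 TPM for complex V and 17.9 TPM for the assembly factors. The catalytic core subunits of complex I ran from NDUFS7 (36.2 TPM) to NDUFV2 (237 TPM), and the accessory subunits from NDUFV3 (25.4 TPM) to NDUFS5 (556 TPM). Complex II was the narrowest class, from SDHB at 101 TPM to SDHC at 250 TPM, a 2.48-fold range. Complex III ran from UQCRFS1, the Rieske iron-sulfur protein, at 27.0 TPM to UQCRH, the hinge protein beside cytochrome c1, at 1064 TPM, a 39.4-fold range within 1 complex. Complex V ran from ATP5F1E, the epsilon subunit of the central stalk, at 38.5 TPM to ATP5MF, a membrane subunit, at 1431 TPM. Assembly factors ran from SDHAF1 at 7.01 TPM to SDHAF2, which attaches flavin to SDHA, at 61.2 TPM.

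**Figure D1:**
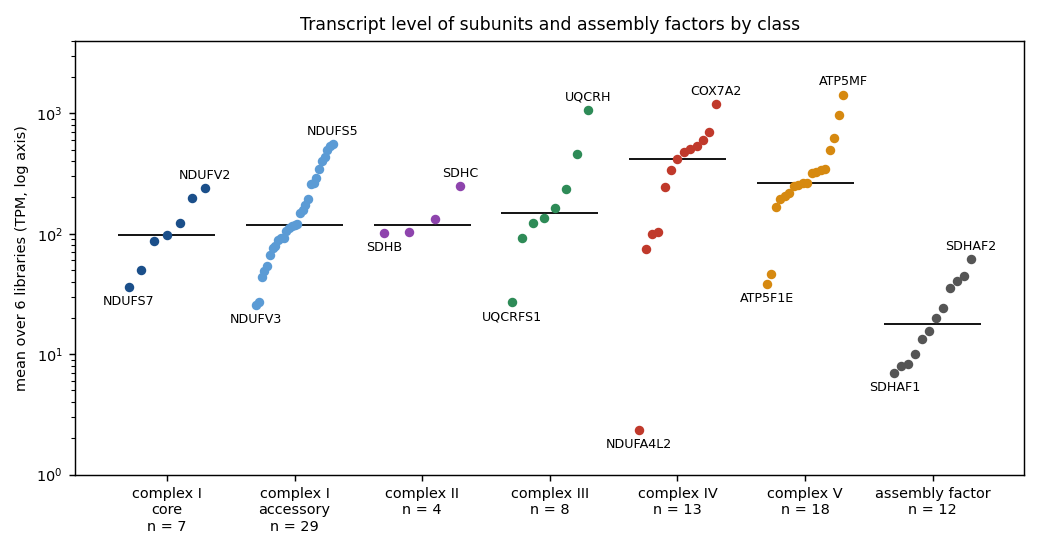
Mean TPM over the 6 libraries (log axis) of the 91 subunits and assembly factors by class, with 1 point per gene, a line at the class median and the highest and lowest gene named. Complex IV has the highest median (416 TPM) and the assembly factors the lowest (17.9 TPM).

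Where subunits have alternative isoforms, 1 form carried nearly all of the signal. COX4I1, the general form of the complex IV subunit 4, averaged 500.3 TPM, while COX4I2, its counterpart known from lung and hypoxia, was listed at 0 in every library. COX6A1 averaged 473 TPM, and the muscle form COX6A2 was below 1 TPM. COX7A2 averaged 1192 TPM and COX7A2L, which takes part in supercomplex formation, 74.3 TPM, while the muscle form COX7A1 was listed at 0. NDUFA4, counted here with complex IV, averaged 102 TPM, and its hypoxia-induced paralogue NDUFA4L2 averaged 2.35 TPM. The proteolipid ring of complex V differs, since its identical mature subunit is encoded by several genes: ATP5MC1 averaged 193 TPM, ATP5MC2 255 TPM and ATP5MC3 263 TPM. The members below 1 TPM also included COX7B2, ATP5MGL and COX8BP, listed at 0 in every library, and COX6B2, COX8C, UQCRHL, NDUFB2-AS1, NDUFV1-DT, NDUFV2-AS1, UQCRB-AS1 and UQCRFS1-DT. UQCRHL, an intronless copy of UQCRH, was at 0.47, 0.63 and 0.46 TPM in siNC and 2.27, 0.82 and 0.31 TPM in siDUSP6. Pseudogene rows took little of the signal: 150 of 179 were at 0 in every library, and together they summed to 7.6 to 16.1 TPM per library. For the 47 members with a pseudogene row, which include COX6C with 17, their rows amounted to at most 3.69% of the member's level, reached by UQCRFS1. Reads from such near-identical copies may be split between rows, so the values of these members are uncertain to an extent that these rows do not measure.

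DUSP6 knockdown was compared with the control siRNA to ask whether these genes changed. Only SDHAF3 and COX5A passed the test, both lower, and 0 members passed higher. The 2 calls are 2.13% of the 94 members, against 3.86% of all 14602 genes tested (2.37% higher and 1.49% lower). Beside all genes, this share is near the background on the lower side and below it over both directions. The members are more abundant, with a median level of 127 TPM against 12.8 TPM for all genes tested. Among genes averaging at least 50 TPM, 126 of 2890 passed lower and 221 higher, against 1 and 0 of the 71 members at that level. At that level the members' share was below the background in both directions. Of the 94, 92 members differed by less than 1.2-fold between groups on the log2(TPM + 1) scale; the other 2 were SDHAF3 and the readthrough ATP5MF-PTCD1 (0.27, 95% interval -0.23 to 0.77). For 70 members the whole 95% interval of the difference lay inside 1.2-fold in either direction, while others had wider intervals, such as NDUFAF5 (-0.74 to 0.27) and ATP5F1D (-0.55 to 0.17). The small differences leaned to 1 side. The log2 fold change was below 0 for 73 members and above 0 for 21, with a median of -0.05, while 57.9% of all genes lay below 0 with a median of -0.03. In 20 members (21.3%) every siDUSP6 library was below every siNC library, against 14.9% of all genes, and in 0 members every siDUSP6 library was above, against 10.2%. An unadjusted limma p under 0.05 was reached by 16 members on the lower side (17%, against 11.2% of all genes) and by 1 on the higher side (1.06%, against 8.03%). At a mean of at least 50 TPM every siDUSP6 library was below in 18 of 71 members and 634 of 2890 genes, and above in 0 and 535. At that level an unadjusted limma p under 0.05 was reached lower by 14 members and 545 genes, and higher by 1 and 478. The lower side was thus closer to the background there, and the higher side stayed below it. The share below 0 was 78.9% for these members and 55.7% for these genes. Members share libraries and often regulation, so these counts are not independent observations and carry no test. After median-of-ratios scaling 61 of these 73 members were still below 0 and the median was -0.03, while 51.4% of all genes lay below 0 with a median of -0.0047.

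**Figure D2:**
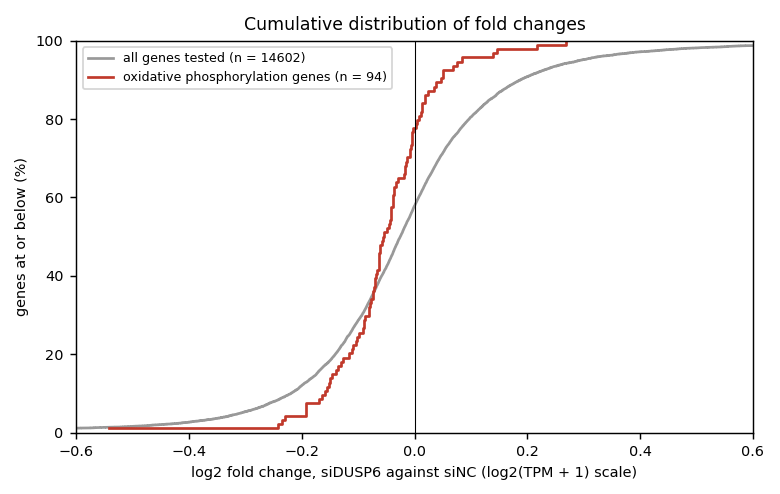
Cumulative percent of genes (vertical axis) at or below each log2 fold change, siDUSP6 minus siNC on the log2(TPM + 1) scale, for the 94 members and for all 14602 genes tested. The members' curve is steeper and crosses 0 at 77.7%, beside 57.9% for all genes.

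Among the core subunits of complex I, which carry the flavin and the iron-sulfur clusters, 0 of 7 passed the test and 6 lay below 0, with a median log2 fold change of -0.06. NDUFV1, the flavin- and NADH-binding subunit, was at 97.2, 101 and 103 TPM in siNC and at 95.3, 95.4 and 93.9 TPM in siDUSP6 (log2 fold change -0.08, adjusted p = 0.212, limma). Its groups did not overlap, by a small margin. NDUFS1, the largest iron-sulfur subunit, was at 52.4, 52.4 and 51.8 TPM in siNC and at 49.3, 50.7 and 45.7 TPM in siDUSP6 (-0.10, adjusted p = 0.272). NDUFS8, which holds iron-sulfur clusters near the membrane arm, averaged 90.7 ± 3.32 and 83.1 ± 6.19 TPM (SD, n = 3 each), with overlapping groups and adjusted p = 0.297 in limma.

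The 29 accessory subunits of complex I, which surround and stabilise the core, held 0 calls, 21 members below 0 and a median of -0.05. NDUFA2, an accessory subunit of the NADH-oxidising module, was at 157, 153 and 154 TPM in siNC and at 143, 134 and 142 TPM in siDUSP6. All 3 knockdown libraries lay below the controls, with a log2 fold change of -0.15 and an adjusted p of 0.0575 in limma. The adjusted p became 0.0408 when genes averaging under 5 TPM were left out. NDUFA2 did not pass in 15 of the 16 alternative settings, and its adjusted p in limma reached 0.169. The gene overlaps IK and TMCO6 on the opposite strand in GENCODE 29, and whether the authors' counting used strand is not given in the sources used here. NDUFA6, an accessory subunit that binds the mitochondrial acyl carrier protein, was at 115, 117 and 113 TPM in siNC and at 108, 107 and 106 TPM in siDUSP6 (-0.10, adjusted p = 0.0831, limma). NDUFA11, a membrane-arm subunit, was at 161, 171 and 165 TPM against 145, 157 and 146 TPM (-0.15, adjusted p = 0.0989, limma). In both genes the groups did not overlap, but neither passed the threshold.

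Complex II, succinate dehydrogenase, stayed within narrow bounds. SDHA, the flavoprotein that oxidises succinate, was at 113, 103 and 104 TPM in siNC and 100, 99.1 and 101 TPM in siDUSP6. Its groups did not overlap, the log2 fold change was -0.09 with a 95% interval of -0.19 to 0.01, and the adjusted p was 0.286 in limma. SDHB, the iron-sulfur subunit, was at 106, 101 and 99.4 TPM against 102, 99.9 and 96.9 TPM, with overlapping groups (-0.04, interval -0.12 to 0.04, adjusted p = 0.596, limma). The membrane anchors SDHC and SDHD, which bind ubiquinone, moved least. SDHC was at 257, 245 and 249 TPM in siNC and 260, 250 and 240 TPM in siDUSP6, with a 95% interval for the log2 fold change of -0.09 to 0.08. SDHD was at 131, 134 and 130 TPM in siNC and 131, 130 and 133 TPM in siDUSP6, with an interval of -0.06 to 0.05; limma gave both anchors an adjusted p above 0.95.

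**Figure D3:**
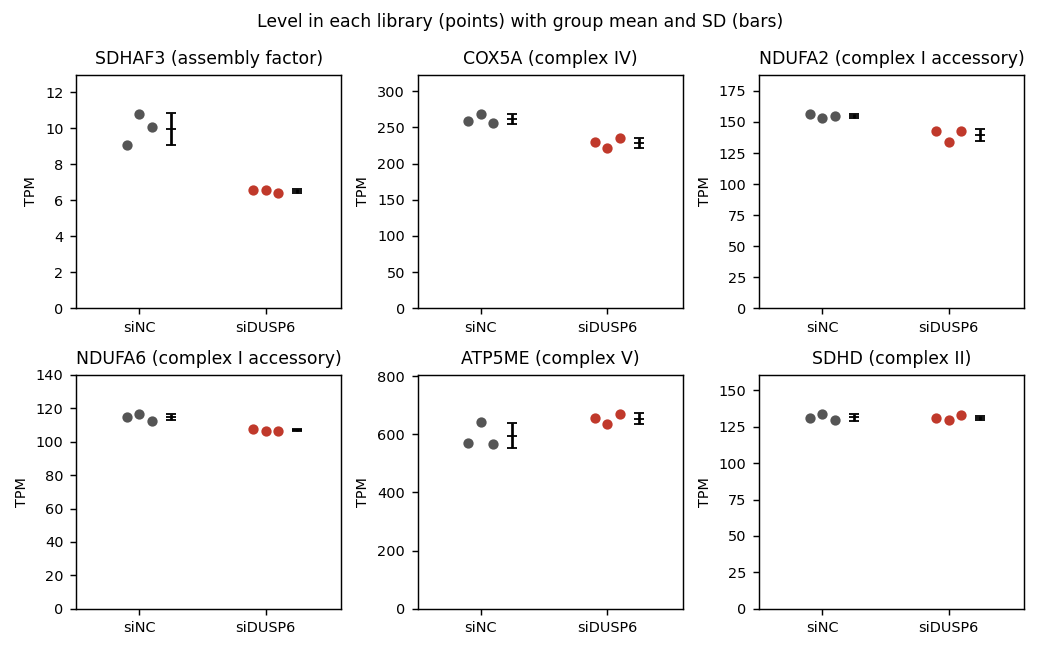
TPM in each library (points) for SDHAF3, COX5A, NDUFA2, NDUFA6, ATP5ME and SDHD, siNC beside siDUSP6, with the group mean and SD as bars and axes that start at 0. The groups of SDHAF3, COX5A, NDUFA2 and NDUFA6 do not overlap, while those of ATP5ME and SDHD do.

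Of the 4 assembly factors of complex II, SDHAF3 was the only one that passed the test. SDHAF3, a chaperone known with SDHAF1 to help the iron-sulfur subunit SDHB mature, lies at chr7:97116590-97181763 on the plus strand (GRCh38, GENCODE 29) and overlaps the pseudogene HMGB3P21 on the opposite strand. Its level was 9.04, 10.8 and 10.0 TPM in siNC and 6.57, 6.58 and 6.40 TPM in siDUSP6, so the highest knockdown library was below the lowest control. The mean fell from 9.96 ± 0.888 to 6.52 ± 0.101 TPM (SD, n = 3 each), a change of -34.6%, with a log2 fold change of -0.54 ± 0.08 (SE) and an adjusted p of 0.0158 in limma. This call did not hold with the replicate number as a block (adjusted p = 0.0819) or without siNC replicate 2 or 3 or any 1 of the siDUSP6 libraries (0.0635 to 0.0725). SDHAF1 averaged 7.63 ± 0.983 and 6.39 ± 1.18 TPM (SD, n = 3 each) and SDHAF2 60.9 ± 4.04 and 61.5 ± 1.39 TPM, and SDHAF4 was at 12.5, 14.6 and 14.6 TPM in siNC and 14.9, 10.7 and 12.5 TPM in siDUSP6, with overlapping groups in all 3. Over the 12 member assembly factors, all NDUFAF or SDHAF, 1 passed lower and 0 higher, with 9 below 0 and a median of -0.13. Of the 44 further assembly factors described below 24 lay below 0, with a median of -0.01. The class of 12 also had the lowest median level. Set against the siNC mean, the class median was -0.0575, -0.0765 and -0.112 in siDUSP6 replicates 1, 2 and 3, and in replicate 1 that of the complex I core was lower (-0.0747). NDUFAF8, which stabilises the complex I assembly factor NDUFAF5, was at 45.3, 47.0 and 48.5 TPM in siNC and 41.4, 45.1 and 39.7 TPM in siDUSP6 (-0.16, adjusted p = 0.188, limma). NDUFAF2, a late chaperone of complex I, averaged 16.8 ± 1.87 and 14.5 ± 1.1 TPM, with overlapping groups (-0.19, adjusted p = 0.316, limma).

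In complex III 0 of 8 members passed, 7 lay below 0 and the median was -0.03. UQCRC1, a large matrix-side core protein, was at 240.0, 232 and 242 TPM in siNC and at 232, 223 and 229 TPM in siDUSP6 (-0.06, adjusted p = 0.254, limma), and its groups did not overlap. The small subunits UQCR11 (94.96 ± 2.70 and 90.5 ± 3.22 TPM) and UQCR10 (136 ± 4.0 and 132 ± 1.09 TPM; SD, n = 3 each) had adjusted p of 0.368 and 0.474 in limma. UQCRH, the most abundant member of the complex, averaged 1070.0 ± 21.1 TPM in siNC and 1058 ± 35.0 TPM in siDUSP6.

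Complex IV held the second call. COX5A, a matrix-side subunit of cytochrome c oxidase, lies at chr15:74919791-74938168 on the minus strand (GRCh38, GENCODE 29). Its level was 259, 269 and 256 TPM in siNC and 229, 221 and 235 TPM in siDUSP6, with all 3 knockdown libraries below all controls. The mean fell from 261 ± 6.83 to 228 ± 6.94 TPM (SD, n = 3 each), a change of -12.6%, with a log2 fold change of -0.19 ± 0.03 (SE) and an adjusted p of 0.0235 in limma. This call did not hold without the filter on low values (adjusted p = 0.0587), without the variance trend (0.115), with the replicate block (0.117), or without any 1 library other than siDUSP6 replicate 3 (0.0644 to 0.0891). COX5B, the zinc-binding subunit beside it, was at 417, 439 and 441 TPM in siNC and at 413, 383 and 405 TPM in siDUSP6 (-0.11, adjusted p = 0.148, limma). COX6B1, which faces the intermembrane space, was at 549.6, 586 and 539.8 TPM against 506, 514 and 525 TPM (-0.12, adjusted p = 0.118, limma). Neither passed, although the groups of both were separate. COX4I1, which neighbours COX5A in the early assembly of the complex, averaged 502 ± 1.83 and 499 ± 8.06 TPM, with a 95% interval for the log2 fold change of -0.05 to 0.03. Across the 13 members of complex IV 11 lay below 0, with a median of -0.02 that became 0.00464 after median-of-ratios scaling.

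In complex V, ATP synthase, 0 of 18 members passed, 14 lay below 0 and the median was -0.05. ATP5F1C, the gamma subunit of the rotating stalk, was at 257, 257 and 256 TPM in siNC and 246, 249 and 238 TPM in siDUSP6 (-0.07, adjusted p = 0.153, limma). ATP5PO, the peripheral-stalk subunit that confers oligomycin sensitivity, was at 266, 273 and 271 TPM against 253, 258 and 262 TPM (-0.07, adjusted p = 0.170, limma). Both had separate groups and differences of less than 1.2-fold. ATP5ME, the e subunit in the membrane part, went the other way: it was at 572, 644 and 568 TPM in siNC and 657, 634 and 671 TPM in siDUSP6, so the groups overlapped through siNC replicate 2. Its log2 fold change was 0.14 with an adjusted p of 0.201 in limma. Without siNC replicate 2, the library through which the groups overlapped, it was 0.20 with an adjusted p of 0.0412. ATP5ME did not pass in 15 of the 16 alternative settings, and its adjusted p in limma reached 0.426. ATP5ME overlaps MYL5 on the opposite strand. The proteolipid genes had log2 fold changes of -0.14 (ATP5MC1), -0.03 (ATP5MC2) and -0.08 (ATP5MC3), and none passed.

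**Figure D4:**
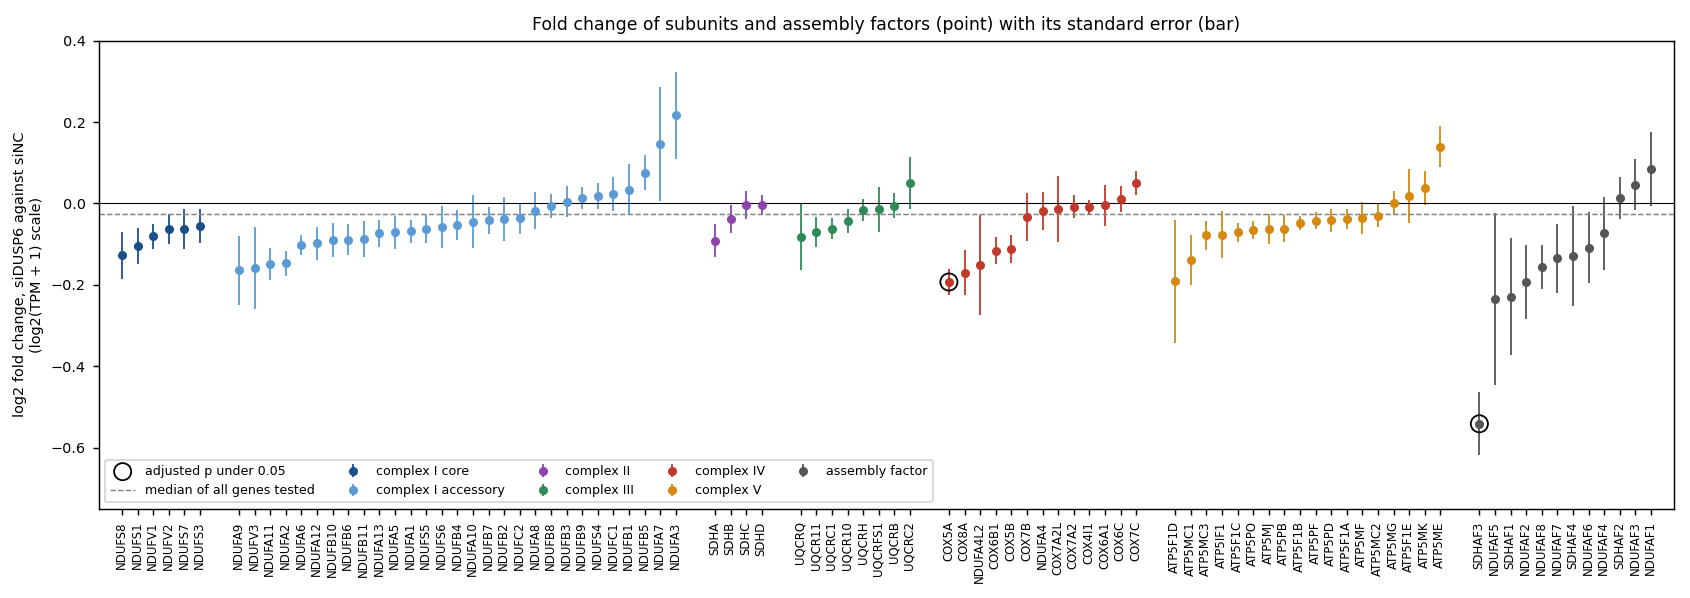
Log2 fold change of the subunits and assembly factors (1 member is not shown), siDUSP6 minus siNC on the log2(TPM + 1) scale, with its standard error from limma as a bar, ordered by class and size; the dashed line is the median of all genes tested (-0.03). The circled genes passed the test: SDHAF3 (-0.54), farthest from 0, and COX5A (-0.19).

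Summed over all members, the levels were 21756, 21832 and 21746 TPM in siNC and 21250.1, 21365 and 21299 TPM in siDUSP6, a difference of -2.17% with separate groups. By complex the sums differed by -3.85% for the complex I core, -2.64% for its accessory subunits, -1.76% for complex II, -1.46% for complex III, -2.57% for complex IV, -1.41% for complex V and -5.3% for the assembly factors. The groups were separate for complex I and IV and, by a margin of 6752 against 6751 TPM between the nearest libraries, for complex V, where they overlapped after quantile normalization and in TPM recomputed without mitochondrially encoded and the top 50 genes; they overlapped for complex II, complex III and the assembly factors. After median-of-ratios scaling, which sets the typical gene rather than the sum of TPM equal, the difference over all members was -0.581% with overlapping groups. Under that scaling the complex I core alone kept separate groups (-2.3%), and complex III (0.141%) and complex V (0.196%) came out slightly above 0. The separation of the sums therefore depends on how the libraries are scaled to each other.

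**Figure D5:**
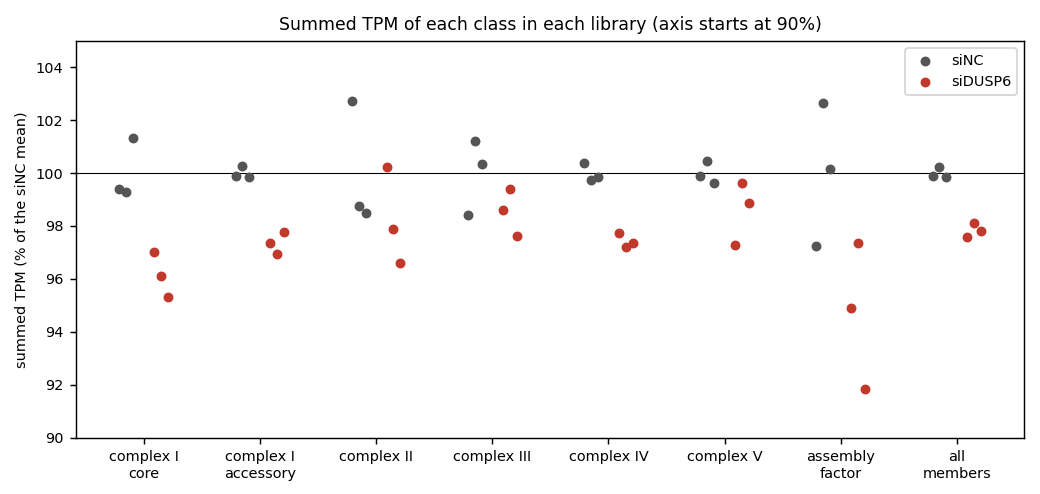
Summed TPM of each class in each library as a percent of the siNC mean, with 1 point per library and an axis that starts at 90%. The siDUSP6 libraries lie below siNC for complex I, IV and V, with differences of a few percent, and intermix with siNC for complex II, complex III and the assembly factors.

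Calls among other genes of the pathway were mostly of mitochondrially encoded subunits. Of these 13 genes, which the stems do not include, 5 fell (MT-ND1, MT-ND2, MT-ND4, MT-CO1 and MT-CO3) and 0 rose, with a median log2 fold change of -0.07, where 1.49% of all genes were called lower. In 9 of the 13 every siDUSP6 library was below every siNC library, against 14.9% of all genes. Of the 2890 genes averaging at least 50 TPM, 126 were called lower and 634 had every siDUSP6 library below. MT-ND3 went the other way, with every siDUSP6 library above every siNC library (0.04, adjusted p = 0.176, limma). After quantile normalization 2 of the 13 were called lower, and MT-ND2 went from -0.0997 to -0.011, MT-ND4 from -0.0813 to -0.017 and MT-CO1 from -0.0849 to -0.0187, with adjusted p of 0.646, 0.370 and 0.581 in limma, while MT-ND1 went from -0.119 to -0.144. The number called lower was 1 with no filter on low values, 0 with no variance trend, 2 with the replicate block and 2 to 3 with a library left out. Among 19 genes for cytochrome c and ubiquinone carriers 0 passed in limma, with 0 lower and 2 higher at an unadjusted p under 0.05 and a median of -0.01. COQ2, which starts the ubiquinone head group, was at 9.32 TPM in siNC and 11.6 TPM in siDUSP6 on average (0.28, adjusted p = 0.0801, limma), and COQ10B, a ubiquinone-binding protein, had a log2 fold change of 0.12 (adjusted p = 0.153). Of 44 further assembly factors 0 passed in limma, with 2 lower and 2 higher unadjusted, 24 below 0 and a median of -0.01; TMEM126B, of complex I assembly, stood at -0.12 (adjusted p = 0.0877) and UQCC1, of complex III assembly, at 0.19 (adjusted p = 0.154). Of 21 regulators of mitochondrial gene expression 0 passed in limma and 1 was lower unadjusted, with 16 below 0 and a median of -0.05. GABPA, a subunit of the ETS-family factor named above, stood at -0.12 (adjusted p = 0.252, limma). LRPPRC, which stabilises mitochondrial mRNAs, stood at -0.08 (adjusted p = 0.296, limma).

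Of 19 citric acid cycle genes 1 fell and 0 rose, with a median of -0.04. IDH2, the mitochondrial NADP-dependent isocitrate dehydrogenase, fell from 108 ± 0.972 to 95.9 ± 2.86 TPM (SD, n = 3 each; -0.16, adjusted p = 0.0364, limma), and the call was lost after median-of-ratios scaling (adjusted p = 0.0606) and without any 1 library, the adjusted p reaching 0.129 among the alternatives. Of 8 genes for itaconate and succinate handling 7 averaged at least 1 TPM, and 0 of these passed in limma, with 0 in either direction unadjusted; the mitochondrial carriers SLC25A1 and SLC25A11 stood at 0.12 (adjusted p = 0.378) and -0.08 (adjusted p = 0.651). The gene below the minimum was ACOD1, the itaconate synthase, at 0.76, 0.57 and 0.57 TPM in siNC and 1.02, 1.36 and 1.44 TPM in siDUSP6. Its groups were separate at this low level, and with no filter limma gave a log2 fold change of 0.47 and an adjusted p of 0.251 (unadjusted 0.0126). Of 11 genes for adenine nucleotide carriers and uncoupling 8 averaged at least 1 TPM, of which 0 passed in limma and 4 were lower unadjusted, with a median of -0.07. SLC25A3, which carries phosphate into the matrix, and SLC25A5, an ADP/ATP carrier, both stood at -0.10 with adjusted p of 0.066 and 0.118. Of the 3 genes below the minimum, SLC25A4, the ADP/ATP carrier typical of muscle, was at 0.54, 0.59 and 0.51 TPM in siNC and 0.78, 0.89 and 1.41 TPM in siDUSP6, with separate groups (0.38 with no filter, adjusted p = 0.441, limma), and CKMT1A and CKMT1B had overlapping groups. In a bulk culture a smaller share of cells with a transcript and less transcript per cell cannot be told apart.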

How the data were processed

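Poly(A) libraries were made with a stranded kit, per the labels' protocols, and the authors deposited TPM per gene for each of the 6 libraries. Per the submitters' processing notes, fastp, HISAT2 and StringTie were used with GRCh38, no versions being given; which annotation release and which quantification program were used is not given in the sources used here. TPM correct for length, sum to 1000000 per library and keep no depth, so no counting interval is given.

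From the deposited values, log2(TPM + 1) was fitted by group in limma 3.58.1 (R 4.3.3), with a variance trend and no covariate, over the 14602 genes averaging 1 TPM or more, after 21 rows without a gene ID were left out. P-values were two-sided and Benjamini-Hochberg adjusted over these genes, with calls at 0.05; fold changes understate the change of low genes. An exact permutation test of 3 against 3 libraries cannot go below 0.1. The fit was tested on data simulated with independent normal noise, which does not cover variation shared between genes or libraries. Coordinates, overlaps and neighbours came from GENCODE 29, and promoters from RefSeq (GRCh38.p14).

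The members and lists were chosen with earlier results of these data known. Named were called members; in each class the 3 smallest p and the highest and lowest level; complex II; the isoform sets; in each other list up to 4 called genes, or the 2 lowest p if there was no call; and DUSP6. The mitochondrially encoded genes called beyond the limit of 4, MT-ND3, the neighbours, the marker genes, ACOD1, SLC25A4, CKMT1A, CKMT1B, SDHAF4, ATP5MF-PTCD1, genes given for a wide interval, and the low genes were named after their values were seen, to account for counts. The settings varied were the pseudocount (0.1 and 5), the filter (none, or 5 TPM), the scaling (median-of-ratios, quantile, or TPM recomputed after removing mitochondrially encoded genes and the top 50), the variance trend (none or robust), a replicate block, and leaving out each library. The values of 1 member are not reported here.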

Additional observations from a re-analysis of the deposited data

How the results depend on the processing

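Over all genes the 564 calls (346 higher, 218 lower) became 360 with no filter (114 lower), 124 with no variance trend (106 higher, 18 lower) and 121 with the replicate block (101 higher, 20 lower), and 209 to 258 with 1 library left out (160 to 185 higher, 48 to 74 lower). Median-of-ratios scaling gave 435 higher and 159 lower. Deviations from the group means correlated at 0.025, -0.037 and 0.048 between same-numbered libraries, and at -0.065 to 0.042 between the others. These values show no pairing by number. The replicate block left 0 members called lower, against 1 with no filter or no variance trend. With a library left out 0 to 1 members were called lower and 0 to 1 higher, and 68 to 75 members lay below 0. The median over all members was -0.0316 after median-of-ratios scaling, -0.0604 after quantile normalization and -0.0539 to -0.0476 with a library left out. For those 3 in turn it was -0.0397, -0.0786 and -0.0927 to -0.0611 for the complex I core; -0.00662, -0.0494 and -0.0459 to -0.0266 for complex III; 0.00464, -0.0319 and -0.0542 to -0.00581 for complex IV; and -0.0218, -0.0602 and -0.053 to -0.0403 for complex V. Accessory subunits of complex I gave -0.0305 after median-of-ratios scaling and -0.0527 to -0.0325 with a library left out, complex II 0.00199 and -0.0432 to -0.01, and assembly factors -0.0996 at a pseudocount of 5 and -0.144 to -0.101. The summed TPM difference was -0.581% (median-of-ratios), -2.65% (quantile) and -2.31% to -2.05% (a library left out). SDHC and SDHD reversed after median-of-ratios scaling (0.0193 and 0.0196) and ranged from -0.0324 to 0.0245 and from -0.0138 to 0.00951 with a library left out. The citric acid cycle list had 0 lower calls after median-of-ratios scaling, with no filter, no variance trend, the replicate block or a library left out. Adenine nucleotide carriers and uncoupling had 1 lower at a mean of at least 5 TPM and 0 to 1 with a library left out, and the further assembly factors 0 to 1 higher. Mitochondrially encoded subunits had 2 lower (quantile), 1 (no filter), 0 (no variance trend), 2 (replicate block) and 2 to 3 (a library left out); recomputed TPM give them no value. The cause of these changes was not tested, beyond the fewer libraries left. Of 352 values of named members under alternatives 330 kept direction and side of the threshold, as did 204 of 236 of other named genes. Most of these genes were not called, so these counts say little about the calls. SDHAF3 kept its call in 10 of 16 alternatives, COX5A in 8 of 16 and IDH2 in 6 of 16. MT-ND1 kept its call in 14 of 15, MT-ND2 in 11, MT-ND4 in 10 and MT-CO1 in 5. Without depth, the precision of low genes cannot be set.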
